A study of Mus musculus with 5 samples.

Results

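The genes described here are the ligands and receptors that steer growing axons: the Slits and their Robo receptors, the netrins with Dcc and the Unc5 receptors, the semaphorins with the neuropilins and plexins, and the ephrins with the Eph receptors. They were chosen by symbol alone, as every measured gene whose symbol begins with Sema, Plxn, Robo, Unc5, Efna, Efnb, Epha or Ephb, together with Slit1, Slit2, Slit3, Ntn1, Ntn3, Ntn4, Dcc, Nrp1 and Nrp2. This rule found 70 symbols. Unc50 and Unc5cl only share the prefix and encode no guidance receptor, which left 68 guidance genes, 34 ligands and 34 receptors, of 19897 genes in all. Each of the 5 samples was measured on 1 Agilent one-colour microarray, on which RNA of 1 sample is labelled with 1 dye and the brightness of a spot reports the amount of a transcript.

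The samples form a time course of mouse embryonic stem (ES) cells turned into motor neurons, and the labels give all of them as wild-type male cells (WT). The ES sample was undifferentiated. Day2 cells had been in retinoic acid (RA) for 8 h, Day3 cells for 1 day and Day4 cells for 2 days, all as embryoid bodies (cell aggregates). The Day7 label reads motor neurons with 5 days of RA, which differs from the labels' own protocol, where RA and Shh were given between day 2 and day 5. Besides, Shh is the inducer in the labels and SAG, an agonist of the same pathway, in the study's methods. The labels name no ES line. Cells were not described as sorted for these arrays, so each value is an average over all cells of a culture, and in such samples fewer cells of a type and less RNA per cell cannot be told apart. Because every time point is a single array, the spread between replicates is unknown and no test or p-value was possible. The number of arrays limits the precision of every value.

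Levels are given as log2 intensity after quantile normalization, which gives the 5 arrays the same distribution of values, so that a difference of 1 is a 2-fold change. The brightest probe on average stood for a gene, and because probes differ in how well they bind, levels of different genes were not compared. A probe counted as measured on an array when the scanner software marked it well above background. Where it was not, it was raised, if lower, to the dimmest value of any measured probe on that array, and the change is written as at least that size. Such a bound holds for this normalization and background treatment, and its range over the other settings is given with the gene or at the end. A gene counted as raised or lowered when its change reached 2-fold, a fixed rule of size. The Day2 array stood apart, with 86.7% of its probes well above background against 57.5% to 65.7% on the other 4 arrays, and with 70.0% of the probes for olfactory receptor genes well above background against 8.75% to 14.1%. The Day7 array came from a second slide, and in every change to Day7 the slide and the time point cannot be told apart. The median SD between repeated spots of a probe, which covers error within an array only, was 0.0617 to 0.111 log2 units.

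Axons are guided at a distance by secreted cues and on contact by membrane-bound cues, and a given cue can attract or repel depending on the receptors the growth cone carries. In the spinal cord the floor plate at the ventral midline secretes netrin and Slit proteins, which draw commissural axons to the midline and keep them from crossing it again. Motor axons leave the cord ventrally and are sorted in the limb by Eph receptors and neuropilins that read ephrins and class 3 semaphorins.

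The guidance genes lay higher at the end of the course than at its start. From ES to Day7, 66 of the 68 had a value, 38 were raised, 10 of them as lower bounds, and 6 were lowered, when 24.8% of all genes with a value were raised and 24.4% lowered. Of the guidance genes, 57.6% were raised and 9.09% lowered. Their median log2 change was 1.79 and that of all genes -0.07. Among the 56 measured on both arrays, 28 were raised and 6 lowered, with a median of 1.01, against 20.9% and 24.4% of all genes so measured. Of the 34 ligands 18 were raised and 1 was lowered, and of the 32 receptors with a value 20 were raised and 5 lowered. The highest of the 5 levels fell on Day7 for 42 of the 68, whereas 26.6% of all genes had theirs on that array.

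**Figure D1:**
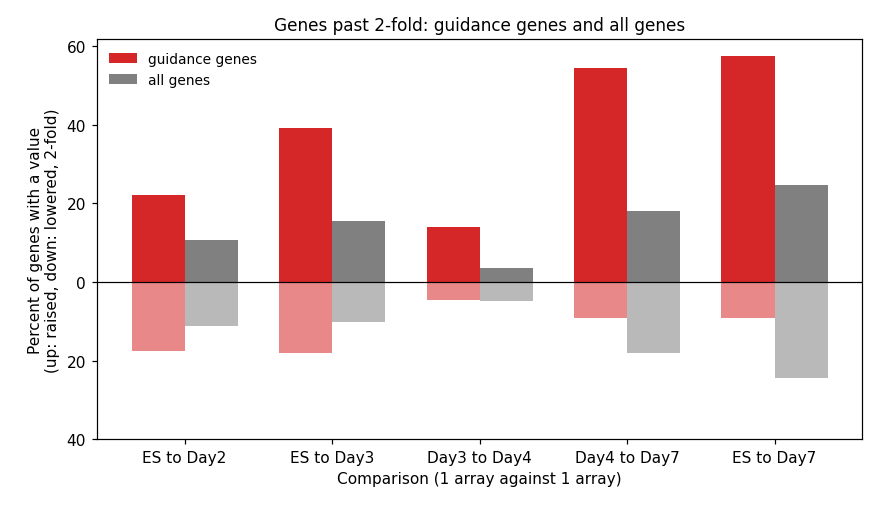
Percent of genes with a value that changed at least 2-fold in each comparison of 2 arrays, with raised genes above and lowered genes (paler) below the zero line, for the guidance genes (red) and for all genes (grey). From ES to Day7, 57.6% of the guidance genes were raised, against 24.8% of all genes.

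Of the 4 shorter comparisons, the one from Day4 to Day7 had the largest median change. There, 36 of 66 guidance genes were raised and 6 lowered, with a median of 1.21, when 18.1% of all genes were raised and 18.1% lowered and the median of all genes was -0.12. From Day3 to Day4, 9 of 64 were raised and 3 lowered, with a median of 0.07, against 3.62% and 4.87% of all genes. From ES to Day3, 24 of 61 were raised and 11 lowered, with a median of 0.81, against 15.6% and 10.2% of all genes and a median of 0.06. From ES to Day2, 15 of 68 were raised and 12 lowered, with a median of 0.13, against 10.7% and 11.3% of all genes. Both comparisons that start from ES also span the culture before RA was added, and with no array at its addition the share of RA in them cannot be told apart. The comparisons share arrays, so their counts are not independent of each other.

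Scaling each array to its 75th percentile in place of quantile normalization left the guidance genes at 38 raised and 8 lowered from ES to Day7 while the median of all genes moved to -0.35. The same scaling moved that median to -0.12 from ES to Day3 and to -0.25 from Day4 to Day7. Raised genes made up 48.7% of all called genes from ES to Day2 in quantile-normalized values and 74.9% after that scaling. From ES to Day3 they made up 60.3% and 48.0%. Among the guidance genes called, the raised share was 55.6% and 64.5% from ES to Day2, and 68.6% and 63.6% from ES to Day3.

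**Figure D2:**
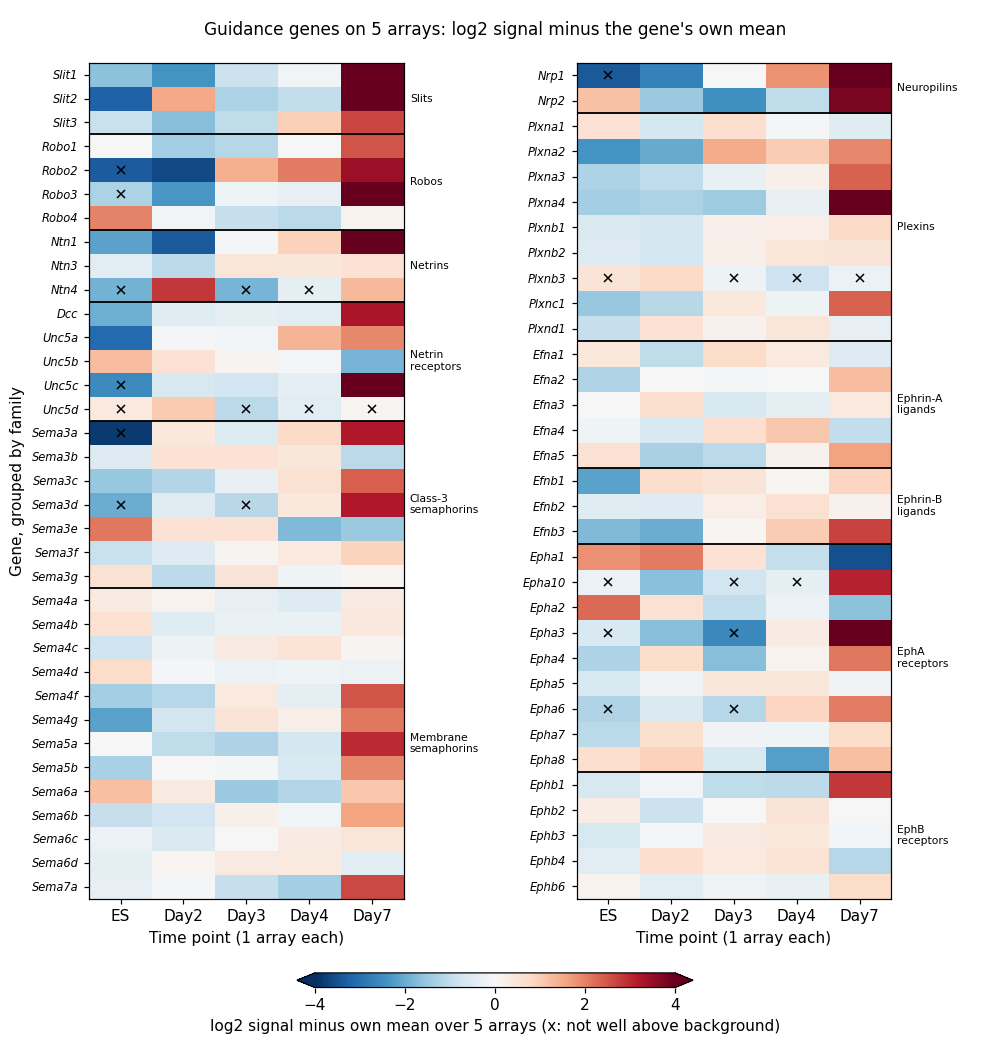
Heat map of the 68 guidance genes (rows, by family) on the 5 arrays (columns), coloured by log2 signal minus the gene's own mean over the 5 arrays, with a cross where the probe was not well above background. Red cells gather in the Day7 column, where 42 genes had their highest level, and the scale ends at 4 log2 units on either side.

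All 68 guidance genes were well above background on at least 1 array, 56 of them on all 5. The number measured was 56 on the ES array, 68 on Day2, 61 on Day3, then 64 and finally 66 on Day7. Of all genes, 73.1%, 91.7%, 72.7%, 77.6% and 76.2% were measured in the same order. Plxnb3 and Unc5d were measured on Day2 alone, the array with the raised dim signals, at 4.77 and 4.53. The 12 members whose brightest probe was not measured in ES were Robo2, Robo3, Ntn4, Unc5c, Unc5d, Nrp1, Sema3a, Sema3d, Epha3, Epha6, Epha10 and Plxnb3, and 10 of these were raised from ES to Day7, a direction that being measured on Day7 and not in ES fixes. Sema3a had another probe that was measured in ES, described below.

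Promoters of 58 of the 68 genes were found in RefSeq annotation of the mouse assembly GRCm38.p6, as 74 windows of 300 bases that run from 250 bases before an annotated transcript start to 50 bases after it. Their median number of CG dinucleotides (CpG) was 19.5, against 7 over all 32851 windows, and their median GC content 64.3% against 52.7%. The letters GGGCGG, on either strand, occurred in 71.6% of the members' windows and in 35.7% of all windows. The letters TATAAA, on either strand, occurred in 2.7% and 13.6%, in the windows of Efnb2 and Slit2 alone. The 37 windows of the 32 raised genes had a median of 23 CpG and the 5 windows of the 5 lowered genes a median of 11. Unchanged genes were not summarized, and a link of CpG content with direction was not tested. The sequences of 4 promoters are shown as examples, 3 for contrasting courses described below and 1, Robo4, for its few CpG. They are the stretch that lies upstream of the annotated gene, 5′ to 3′ in the direction of the gene, with every CG in capitals. Unc5c had a large lower bound of a rise from ES to Day7, with larger values in Slit2, Ntn1 and Slit1. Epha1 had the largest fall of all, Nrp2 fell and then rose, and Robo4 had as few CpG in its window as any member (2).
Unc5c, chr3:141465314-141465563, plus strand: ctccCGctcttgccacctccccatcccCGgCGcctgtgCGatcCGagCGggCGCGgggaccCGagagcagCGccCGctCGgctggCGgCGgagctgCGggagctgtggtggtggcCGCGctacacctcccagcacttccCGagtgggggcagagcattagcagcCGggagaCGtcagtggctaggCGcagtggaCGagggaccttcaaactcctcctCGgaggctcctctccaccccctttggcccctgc
Nrp2, chr1:62703067-62703316, plus strand: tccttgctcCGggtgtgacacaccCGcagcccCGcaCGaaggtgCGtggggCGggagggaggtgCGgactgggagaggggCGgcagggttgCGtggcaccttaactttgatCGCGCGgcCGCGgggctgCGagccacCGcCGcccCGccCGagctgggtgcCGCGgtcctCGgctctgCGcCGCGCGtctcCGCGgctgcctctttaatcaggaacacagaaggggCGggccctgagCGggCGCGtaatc
Epha1, chr6:42373315-42373518, minus strand: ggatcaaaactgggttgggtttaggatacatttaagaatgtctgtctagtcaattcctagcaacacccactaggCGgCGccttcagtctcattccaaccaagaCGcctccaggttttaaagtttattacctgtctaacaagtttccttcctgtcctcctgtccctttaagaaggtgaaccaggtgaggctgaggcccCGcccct
Robo4, chr9:37401722-37401901, plus strand: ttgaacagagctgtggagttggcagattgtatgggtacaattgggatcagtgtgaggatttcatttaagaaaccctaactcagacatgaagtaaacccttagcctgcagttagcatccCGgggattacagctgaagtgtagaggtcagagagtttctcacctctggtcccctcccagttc
The stretches of Unc5c and Nrp2, which were both highest on Day7, held 23 and 32 CpG in 250 bases. Those of Epha1 and Robo4 held 4 in 204 bases and 1 in 180. Since Robo4 was picked for its few CpG and the whole window of Epha1 held 14, these 4 sequences are examples and no comparison of CpG content with direction. Over all members the windows held between 2 and 56 CpG.

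The Slits are secreted proteins that repel axons carrying Robo receptors, and all 3 were raised from ES to Day7. Slit1 read 8.22 in ES, 7.49 on Day2, 9.02 on Day3 and 9.77 on Day4, then 14.86 on Day7. Slit2 read 6.28, 11.05, 8.25, 8.53 and 13.51 in the same order. Slit3 read 7.87, 7.07, 7.75, 9.73 and 11.46. Day7 was thus the highest array for each, and Slit2 alone had an earlier peak, on Day2, 27.2-fold over ES. Over the settings tried, this change of Slit2 lay between 3.84 and 4.82 log2 units. The change from ES to Day7 was 100-fold for Slit1, 150-fold for Slit2 and 12-fold for Slit3. Slit1 and Slit2 made most of it after Day4, with 34-fold and 31.4-fold, whereas Slit3 was raised 3.95-fold already from Day3 to Day4 and 3.32-fold after that.

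Of the Robo receptors, 3 were raised and 1 was lowered from ES to Day7. Robo1, a main Slit receptor of commissural axons, read 10.16 in ES, 8.77 on Day2, 9.03 on Day3 and 10.15 on Day4, then 12.69 on Day7. Robo2, which also binds Slits, was not well above background in ES and read 2.84, 7.86, 8.50 and 9.86 on the later arrays. Robo3, a divergent Robo needed for midline crossing, was likewise below the mark in ES and read 3.63, 5.79, 5.63 and 10.03. Robo2 therefore came up by Day3, at least 12.8-fold over ES (1.54 to 4.75 log2 units over the settings tried). Robo3 came up mainly after Day4, by 21.1-fold (3.25 to 4.66 log2 units over the settings). Robo1 was lowered 2.18-fold from ES to Day3 and then raised 2.17-fold and 5.81-fold in the next steps. Robo4, the Robo best known from blood vessels, read 8.44, 6.35, 5.56, 5.39 and 6.61 and was the one Robo that lay lower on Day7 than in ES, by 3.56-fold. From Day4 to Day7 it was raised 2.32-fold, so that all 4 Robos were raised in that step, although for Robo4 this change lay between 0.47 and 1.32 log2 units over the settings tried. The second Robo2 probe gave nearly the same course, with 9.80 on Day7 and a rise of at least 5.62 log2 units against at least 5.68.

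**Figure D3:**
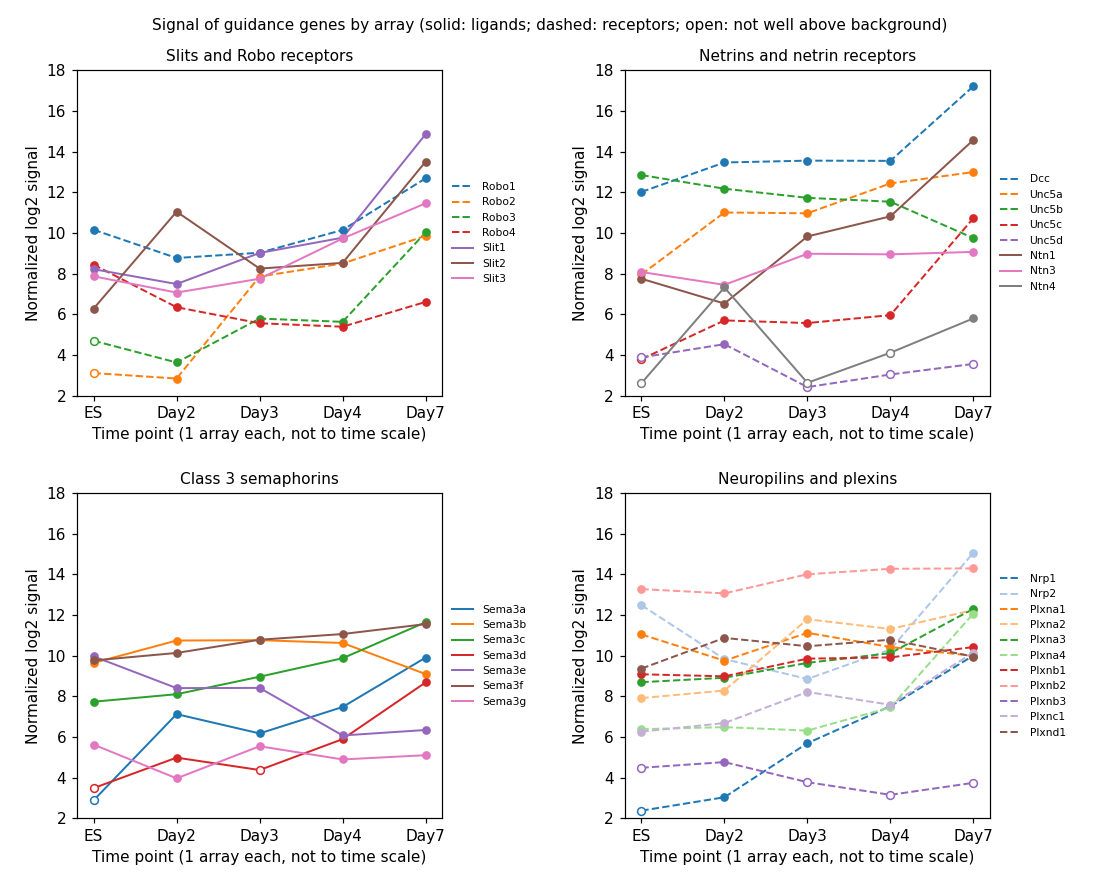
Normalized log2 signal of Slits and Robos, netrins and their receptors, class 3 semaphorins, and neuropilins and plexins on the 5 arrays, 1 point per array, with solid lines for ligands, dashed lines for receptors and open points where the probe was not well above background. Slit1, Slit2, Ntn1, Dcc, Unc5c, Nrp2 and Plxna4 climb steeply between Day4 and Day7, while Unc5b and Sema3e lie lower on Day7 than in ES; heights of different genes are not comparable.

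Ntn1 encodes netrin-1, the attractant that the floor plate makes for commissural axons. It read 7.75 in ES, 6.53 on Day2, 9.83 on Day3 and 10.82 on Day4, then 14.58 on Day7. It was raised 4.21-fold by Day3 and a further 13.5-fold from Day4 to Day7, 113-fold over the whole course. The change over the course lay between 6.0 and 6.9 log2 units over the settings tried. A second Ntn1 probe, not well above background in ES, rose by at least 5.18 log2 units. Ntn4, a netrin of basement membranes, was measured on Day2 (7.32) and Day7 (5.80) alone, and lay at least 3.07-fold higher on Day7 than in ES, with a change between 0.48 and 3.19 log2 units over the settings tried. Ntn3 moved by 0.99 log2 units, just short of 2-fold, with all 5 levels between 7.45 and 9.07.

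Among the netrin receptors, Dcc, which mediates attraction, gave 12.02 in ES, 13.47 on Day2, 13.56 on Day3 and 13.55 on Day4, then 17.22 on Day7. It was raised 2.90-fold by Day3, stood still until Day4 and was raised 12.8-fold after that. The other 2 Dcc probes were dim: neither was well above background before Day4, and they rose from ES to Day7 by at least 4.61 and at least 1.93 log2 units. With the mean over its probes in place of the brightest, the early change of Dcc turned to -0.40 by Day2 and -0.12 by Day3, and that from Day3 to Day4 to 1.14, past 2-fold.

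The Unc5 receptors mediate repulsion by netrin, and they did not move together. Unc5a read 7.96, 11.01, 10.97, 12.44 and 13.00, raised 8.31-fold by Day2 and a further 2.78-fold from Day3 to Day4. Unc5c, whose CpG-rich promoter is shown above, was not measured in ES and read 5.70, 5.57, 5.96 and 10.73 on the later arrays, 27.4-fold from Day4 to Day7 and at least 94.1-fold over the course. Unc5b read 12.85, 12.18, 11.73, 11.54 and 9.75, lower on each array than on the one before, and lay 8.57-fold lower on Day7 than in ES. Over the settings tried, the change of Unc5c lay between 0.35 and 1.77 log2 units from ES to Day3 and between 4.27 and 6.95 from ES to Day7. Its second probe changed by 2.28 from Day4 to Day7 and by at least 3.37 over the course.

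Class 3 semaphorins are secreted and act through neuropilins that pair with class A plexins. Of the 7 genes, 4 were raised from ES to Day7 and 1 was lowered. Sema3a, a repellent for motor and sensory axons, was not measured in ES on its brightest probe and read 7.13 on Day2, 6.18 on Day3 and 7.48 on Day4, then 9.91 on Day7. Sema3d was measured on Day2 (4.99), Day4 (5.90) and Day7 (8.69). Sema3c read 7.74 in ES, 8.11 on Day2, 8.97 on Day3 and 9.88 on Day4, then 11.65 on Day7. These 3 were highest on Day7, at least 53.3-fold, at least 22.8-fold and 15-fold over ES. Over the settings tried, the change lay between 3.27 and 7.03 log2 units for Sema3a and between 2.25 and 5.19 for Sema3d. The other Sema3a probe did not show this: it was measured on all arrays and read 6.57 in ES and 6.54 on Day7. Sema3e, which signals through Plxnd1, went down instead, at 9.97, 8.41, 8.42, 6.08 and 6.35. It was 12.3-fold lower on Day7 than in ES (-3.87 to -2.9 log2 units over the settings tried). Sema3f, a ligand of Nrp2, was raised 3.46-fold. Sema3b was raised 2.18-fold by Day3 and lowered 2.89-fold after Day4, to -0.55 over the course. Sema3g moved by -0.52 and its lowering of 3.16-fold from ES to Day2 became a change of 0.07 log2 units after 75th percentile scaling.

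Both neuropilins, the ligand-binding partners of these semaphorins, were raised over the course, by different routes. Nrp1 was not measured in ES and read 3.04 on Day2, 5.70 on Day3 and 7.52 on Day4, then 10.01 on Day7. It went up at each step from ES to Day3, Day4 and Day7, at least 57.2-fold in all, although its change from ES to Day3 lay between 0.40 and 3.32 log2 units over the settings tried. Nrp2 started high, at 12.49, dropped to 9.84 on Day2 and 8.86 on Day3, and came back to 10.31 on Day4 and 15.07 on Day7. That is 12.4-fold down by Day3 and 27-fold up from Day4 to Day7. The second Nrp2 probe followed it, at 8.84, 7.04, 6.29, 7.47 and 12.13.

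Plexins are the signal-transducing semaphorin receptors, and 6 of the 8 with a value were raised from ES to Day7. Plxna4, a partner of the neuropilins, stayed at 6.39 in ES, 6.49 on Day2 and 6.32 on Day3, then read 7.46 on Day4 and 12.08 on Day7. Its 24.6-fold rise after Day4 was seen on 1 probe, as its other probe was well above background on Day2 alone. With the mean over both probes its change from Day3 to Day4 was -0.50 in place of 1.13. Plxna2 read 7.92, 8.29, 11.80, 11.32 and 12.25, which puts most of its rise, 14.7-fold, before Day3. Plxnc1, the receptor of Sema7a, was raised 14.8-fold, and its second probe, not measured in ES, by at least 1.36 log2 units. From Day4 to Day7 these probes differed, with changes of 2.57 and 0.16. Plxna3 was raised 12.2-fold. Plxnb1 and Plxnb2, receptors for class 4 semaphorins, were raised 2.53-fold and 2.03-fold, and the change of Plxnb2 lay between 0.35 and 1.02 log2 units over the settings tried. Plxna1, another class A plexin, was lowered 2.07-fold, and Plxnd1 changed by 0.59 log2 units.

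Of the semaphorins held in the membrane (classes 4, 5, 6 and 7), 6 of 13 were raised from ES to Day7 and 0 lowered, with a median of 0.92. The rest stayed within 2-fold from ES to Day7, although some of them passed 2-fold within the course. Sema4g read 7.18 in ES, 8.57 on Day2, 9.84 on Day3 and 9.56 on Day4, then 11.44 on Day7, a change of 19.1-fold that was past 2-fold by Day2. Sema5a read 8.74, 7.76, 7.54, 8.05 and 11.75 and was raised only after Day4, by 13-fold. Sema7a, which is tethered by a lipid anchor, was raised 16.1-fold after Day4. Sema4f was raised 14.9-fold over the course, Sema5b 9.20-fold and Sema6b 5.65-fold. The change of Sema4f lay between 2.87 and 4.09 log2 units over the settings tried. Sema6a, a ligand of Plxna2 and Plxna4, was lowered 6.39-fold by Day3 and raised 4.70-fold after Day4, which brought it to -0.14 against ES. The 7 genes without a 2-fold change from ES to Day7, Sema4a, Sema4b, Sema4c, Sema4d, Sema6a, Sema6c and Sema6d, lay between -0.98 and 0.92 log2 units.

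**Figure D4:**
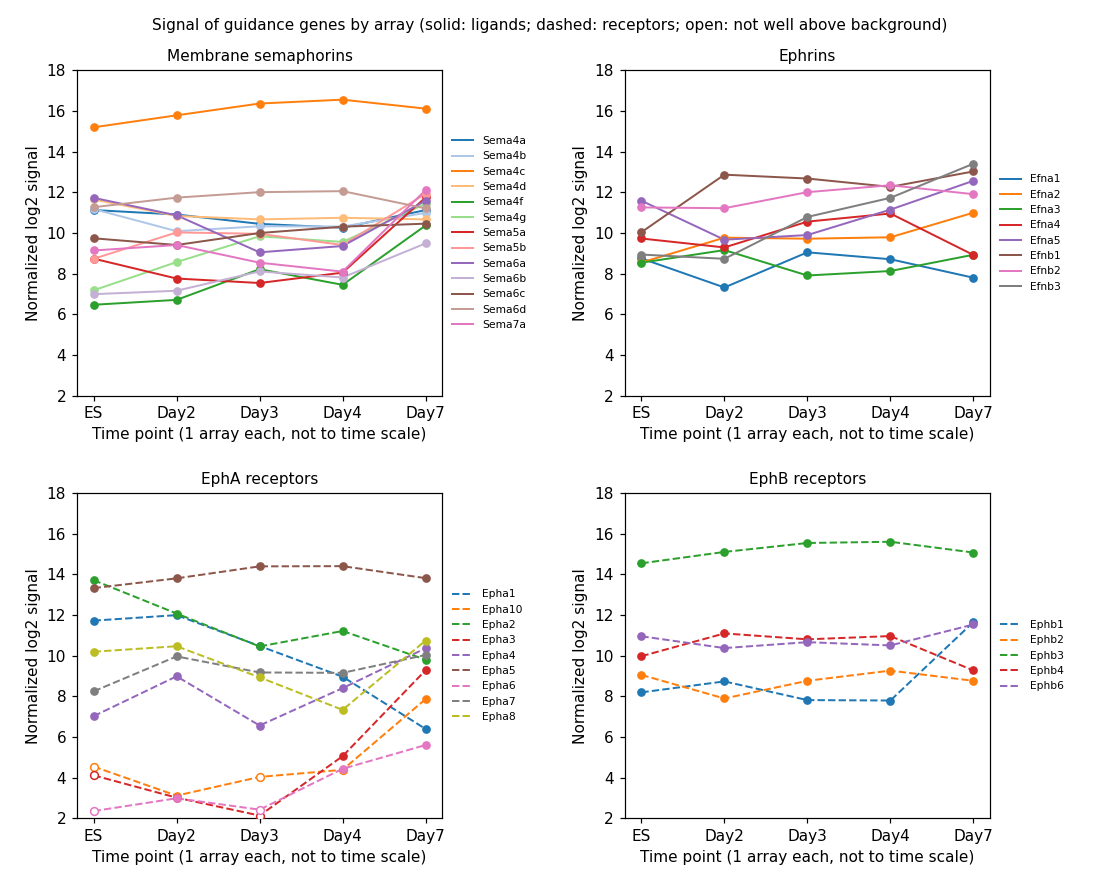
Normalized log2 signal of membrane semaphorins, ephrins, EphA receptors and EphB receptors on the 5 arrays, 1 point per array, with solid lines for ligands, dashed lines for receptors and open points where the probe was not well above background. Epha1 and Epha2 descend from ES to Day7 while Epha3, Epha10 and Ephb1 rise after Day4; heights of different genes are not comparable.

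Ephrin-A ligands are anchored to the membrane by a lipid and bind EphA receptors. Of these 5 genes, 1 was raised from ES to Day7 and 0 lowered, with a median of 0.39. Efna2 was the raised one, 5.46-fold. Efna5, a repellent of motor and retinal axons, read 11.59 in ES, 9.67 on Day2, 9.90 on Day3 and 11.15 on Day4, then 12.57 on Day7, lower by 3.21-fold on Day3 and 0.98 log2 units higher on Day7 than in ES. Efna4 was lowered 4.09-fold from Day4 to Day7. The changes of Efna1, Efna3 and Efna4 from ES to Day7 lay between -0.95 and 0.39.

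Ephrin-B ligands span the membrane and can signal back into the cell that carries them. Efnb1 read 10.04, 12.87, 12.68, 12.27 and 13.03, a 7.10-fold rise by Day2 that held to the end. Efnb3, the ephrin of the spinal cord midline, read 8.94, 8.73, 10.79, 11.73 and 13.41, 22.2-fold over the course. Efnb2 changed by 0.65 log2 units. So the 2 raised ephrin-B genes differed in timing, Efnb1 early and Efnb3 from Day3 on.

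The EphA receptors held the 2 largest falls of all 68 genes as well as several rises: 5 of 9 were raised from ES to Day7 and 2 were lowered. Epha1, whose promoter is shown above, read 11.73 in ES, 12 on Day2, 10.48 on Day3 and 8.97 on Day4, then 6.40 on Day7. It was lowered in each step from ES to Day3, Day4 and Day7, 40.4-fold in all. Epha2, a receptor of ES cells and epithelia, was lowered 9.64-fold by Day3 and 15.1-fold over the course. Epha3, which is used by medial motor axons, was measured on Day2 (3.02), Day4 (5.06) and Day7 (9.29), at least 34.6-fold over ES. Epha10, a receptor that lacks kinase activity, was measured on Day2 (3.12) and Day7 (7.87) alone, at least 10-fold over ES. Epha4, which sorts limb motor axons, was raised 3.59-fold from Day3 to Day4 and 3.88-fold after that, 10.1-fold over the course. Epha7 was raised 3.45-fold and Epha6 at least 2.70-fold. Over the settings tried, the change lay between 1.49 and 3.01 log2 units for Epha7 and between 0.42 and 3.25 for Epha6. Epha8 went down 2.40-fold and 3.04-fold by Day3 and Day4 and up 10.6-fold after that. Epha5 changed by 0.49 on its brightest probe, whereas its other probe, not well above background in ES, rose by at least 6.74 log2 units to 10.92 on Day7.

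Among the EphB receptors 1 of 5 was raised from ES to Day7 and 0 were lowered. Ephb1, which directs axons at choice points, read 8.20 in ES, 8.74 on Day2, 7.82 on Day3 and 7.80 on Day4, then 11.66 on Day7. It stayed level until Day4 and was then raised 14.5-fold. Ephb4, known from veins, was lowered 3.23-fold after Day4 and Ephb6, which lacks kinase activity, was raised 2.03-fold on its brightest probe. The change of Ephb6 lay between 0.50 and 1.03 log2 units over the settings tried, and its other probe changed by -0.03. Ephb2 and Ephb3 changed by less than 2-fold from ES to Day7.

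**Figure D5:**
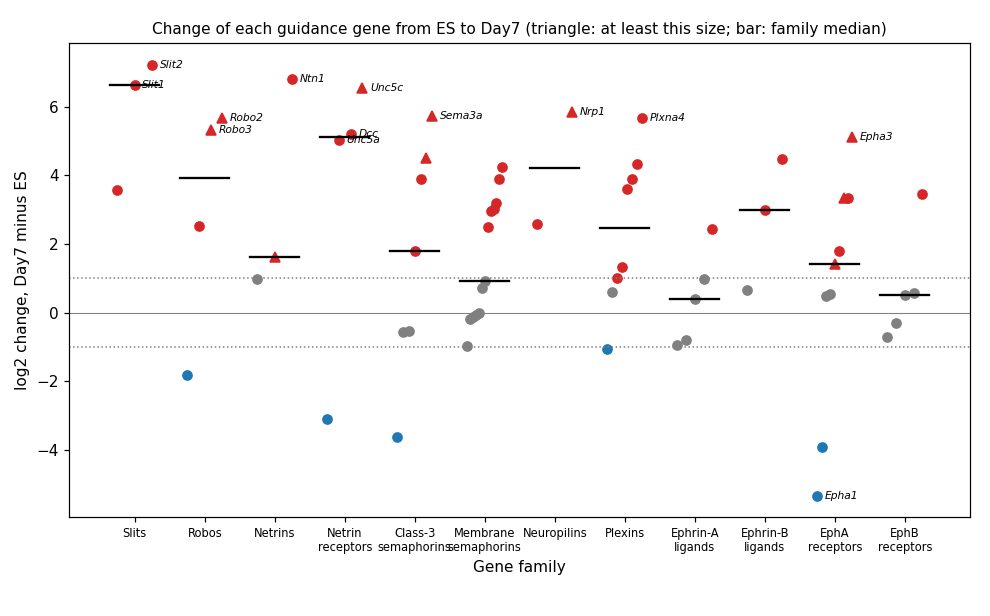
Log2 change from ES to Day7 of each guidance gene with a value, by family, with triangles for lower bounds, circles for measured changes, red for raised, blue for lowered, a black bar at the family median and dotted lines at 2-fold. The median is 6.65 for the Slits and 0.39 for the ephrin-A ligands, and the 6 lowered genes are 1 Robo, Unc5b, Sema3e, Plxna1, Epha1 and Epha2.

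Taken by family, the median change from ES to Day7 was 6.65 for the Slits, 5.12 for the netrin receptors, 4.21 for the neuropilins, 3.93 for the Robos, 2.99 for ephrin-B ligands and 2.48 for the plexins. It was 1.79 for class 3 semaphorins, 1.62 for the netrins, 1.43 for EphA receptors, 0.92 for the membrane semaphorins, 0.53 for EphB receptors and 0.39 for ephrin-A ligands. The medians of the neuropilins, the Robos, the netrins and the EphA receptors are or include lower bounds, so their place in this order is not exact. Families of 2 to 5 genes rest on few values.

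The courses from ES over Day3 and Day4 to Day7 fell into 15 patterns of steps past 2-fold. A step without a value was counted as level. The share of all genes with each pattern was not computed, so these counts do not show whether a pattern is commoner among guidance genes. Up, level, up was shown by 14 genes: Dcc, Efna2, Efnb3, Ntn1, Plxnc1, Robo2, Robo3, Sema3c, Sema4f, Sema4g, Sema5b, Sema6b, Slit2 and Unc5c. This pattern held under every setting tried for 7 of the 14, Efnb3, Plxnc1, Robo2, Sema4f, Sema4g, Sema5b and Slit2. Another 10 genes had no step past 2-fold before the last, in which they were raised: Epha10, Epha3, Epha6, Ephb1, Ephb6, Ntn4, Plxna3, Sema3d, Sema7a and Slit1. Of these, Epha10, Epha3, Epha6, Ntn4 and Sema3d lacked a value in at least 1 earlier step, and 5 kept the pattern under every setting, Epha10, Ephb1, Plxna3, Sema7a and Slit1. A further 6 were raised by Day3 and then held within 2-fold at each step: Efnb1, Epha5, Plxna2, Plxnd1, Sema3f and Sema4c, a course that Efnb1, Plxna2 and Plxnd1 kept under every setting. Efna5, Nrp2 and Robo1 went down by Day3 and up in both later steps, and Epha1 went down in every step, each under every setting. Nrp1 and Sema3a went up in every step, but neither did so under every setting. The 18 genes with no step past 2-fold included Plxnb3 and Unc5d, which had no value in these steps.

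Among other genes of the guidance pathways, more were raised than lowered. The lists of co-receptors and of effectors were chosen with earlier results of these data known, so their counts are no independent support. Spon1 also belongs to the floor plate list. Over all genes, 24.8% were raised and 24.4% lowered from ES to Day7. Of 32 co-receptors and further ligands, 30 had a value from ES to Day7, 19 were raised and 1 was lowered, with a median of 1.96. By measured change or lower bound the first 4 were Chl1, a cell adhesion partner of neuropilins, at least 8.50 log2 units, Spon1, a floor plate matrix protein, 6.62, Ncam1, a neural adhesion molecule, 6.56, and Tmeff2, 6.38, where the order against other lower bounds is not known. The lowered one was Dscaml1, at -1.15. Of 48 intracellular effectors, all had a value, 24 were raised, 4 lowered and 20 did not reach 2-fold, with a median of 1.05. Dpysl4 and Dpysl3, members of the collapsin response mediator family, were raised by 6.11 and 5.80 log2 units, Srgap3, which acts downstream of Robo, by 6.06, and Cdk5r1, the activator of the kinase Cdk5, by 5.41. The lowered ones were Mical2 (-2.14), Srgap2 (-2.04), Dock1 (-1.31) and Enah (-1.19).

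Markers of several cell types changed alongside the guidance genes. From ES to Day7, 8 of 8 motor neuron markers were raised (median 5.98), 10 of 11 pan-neuronal markers (5.41), 6 of 6 floor plate markers (7.08) and 5 of the 7 mesenchyme markers with a value (3.0), and 7 of 8 pluripotency markers were lowered (median -3.60). The cholinergic transporter Slc18a3 went from 8.56 to 15.54 and the motor neuron factor Isl1 from 7.18 to 13.25. Floor plate markers stood beside Slit1, Slit2 and Ntn1: Foxa2 went from 6.59 in ES to 11.52 on Day4 and 14.12 on Day7, and Shh was well above background on Day7 alone, at 12.71. The floor plate list had a median level of 4.88 in ES, 5.56 on Day4 and 13.04 on Day7, with 3, 3 and 6 of 6 markers well above background. Its part in the guidance results, and that of the neuronal and mesenchyme lists, was not tested. Of the endothelial markers, 4 of 6 with a value were lowered from ES to Day7 and 1 was raised, Cdh5, by at least 4.39 log2 units. Of the blood markers 0 of 4 changed. A link of the endothelial list to the courses of Robo4 and Ephb4 was not tested. The neural progenitor list had 5 of 8 raised and 2 lowered, the spinal interneuron list 4 and 1 of 9, the glial list 3 and 1 of 7, the endoderm list 1 and 2 of 4, and the list of sensory and neural crest markers 1 and 1 of 6.

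For 18 guidance genes more than 1 probe was matched. From ES to Day7 all probes of a gene gave the same call in 14 of them, in 3 they differed on whether 2-fold was reached, and in 1 a probe had no value. From Day4 to Day7 the call was the same in 10 of 18 and differed on reaching 2-fold in 7. From ES to Day2 the probes gave the same call in 4 of 18 and opposite calls in 1, Sema3a. From ES to Day7 the change lay between 3.19 and 6.75 log2 units for Robo2, 3.73 and 5.67 for Robo3, 3.64 and 7.63 for Nrp1, 3.12 and 5.48 for Epha3, and 1.56 and 3.60 for Epha10. Among measured genes it lay between 3.65 and 5.90 for Plxna4, 6.33 and 7.42 for Slit2, 4.22 and 5.20 for Dcc, and -5.75 and -4.50 for Epha1. Of the 44 calls from ES to Day7, 41 were made under every setting tried. The same held for 37 of 42 calls from Day4 to Day7 and 10 of 12 from Day3 to Day4, but for fewer of the early ones, 19 of 27 from ES to Day2 and 23 of 35 from ES to Day3.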

How the data were processed

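The 5 samples were mapped to time points from their labels. Scanner output made with Agilent Feature Extraction 10.5.1 (per the labels) was deposited by the authors, with spot intensity background-subtracted and detrended, and no normalization between arrays. A log2 table, also deposited, equals the log2 processed signal minus the 75th percentile of its array for 99.64% to 99.8% of probes within 0.01. All its columns belong to these samples.

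Control spots and outlier spots (105 to 169 per array) were dropped, repeated spots of a probe averaged, and log2 intensities were quantile-normalized with limma 3.58.1 (R 4.3.3), because the study's legend for its expression map names a quantile analysis. No spot was saturated. Further steps used Python 3.11.15, numpy 2.4.6, pandas 2.3.3 and matplotlib 3.10.9. Of 55681 probes, 26300 matched 19897 symbols by accession in RefSeq names of GRCm38.p6; the array was designed on mm9, so that table gave names, and promoter coordinates come from RefSeq windows. A gene measured on neither array of a comparison got no value, and those whose brighter side did not exceed the floor entered at 0. The calculation of changes and bounds was tested on a copy of the ES array with known changes added. Loading and normalization were not tested in this way.

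All 5 levels are given for up to 4 genes per family with the largest range, at most 30 in all; other pathway and marker genes are named for the 4 largest changes or as lead markers. The members and lists were chosen with earlier results of these data known. Alternatives were the 75th percentile shift, the deposited log2 table, normexp correction (offset 50), no filter on dim probes, probes measured on both arrays, the mean over probes and, chosen after seeing the data, quantile normalization without Day2.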

Additional observations from a re-analysis of the deposited data

How the results depend on the processing

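The counts of guidance genes raised or lowered stayed within 1.5 times of those reported under every alternative run, the furthest being 8 in place of 12 lowered from ES to Day2 after normexp correction, and no count or median past 2-fold reversed. Quantile normalization without Day2 gives no ES to Day2 value. Of 160 changes past 2-fold, 151 stayed past it in the same direction after the 75th percentile shift and with the deposited log2 values. After normexp correction 137 stayed, and with the mean over probes 152. Without Day2, a setting chosen after seeing the data, 133 of 133 stayed. The 160 kept without a filter and the 140 of 140 with probes measured on both arrays were fixed in advance. Dropping the filter can only enlarge a called change, and the other setting keeps measured changes as they are. Neither adds support to the calls made under every setting. The median change of the guidance genes moved beyond the combined SD between spots of both arrays in the cases below. The 75th percentile shift and the deposited values gave 0.28 from ES to Day2 and 0.68 from ES to Day3. From ES to Day2 normexp correction and the mean over probes both gave 0.00, the median of all genes, in place of 0.13, a move within that SD. Normexp correction gave 0.60 from ES to Day3, 0.88 from Day4 to Day7 and 1.52 from ES to Day7. Without a filter the medians were 0.20 from Day3 to Day4 and 2.12 from ES to Day7, with probes measured on both arrays 1.01 from ES to Day7, and with the mean over probes 0.22 from Day3 to Day4 and 2.47 from ES to Day7. From ES to Day7 the co-receptor list gave 1.56 after normexp correction, 1.80 without a filter, 1.81 with probes measured on both arrays, 2.83 with the mean over probes and 2.09 without Day2, and the effector list gave 0.76 after the 75th percentile shift and with the deposited values. Sema3g turned to 0.07 from ES to Day2 in the shifted and the deposited values. With the mean over probes, Dcc turned to -0.40 from ES to Day2 and -0.12 from ES to Day3, and Plxna4 to -0.50 from Day3 to Day4; the cause was not tested. The bounds rest on 10 genes that were not well above background in ES, which is why the ES to Day7 median falls when both arrays are required. A slide block could not be fitted and no replicate could be left out. No paired analysis was possible because there was 1 array per time point.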
